A study of Rattus norvegicus with 54 samples.

Results

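The transcripts of 10 macrophage genes were followed in the left ventricle of rats 1 week after myocardial infarction (MI), with and without an epicardial cell sheet. The genes were chosen by symbol, and all 10 were found among the 40319 genes counted in each library. Cd68, Csf1r and Adgre1 mark macrophages in general. Cd163, Mrc1, Timd4 and Folr2 are taken here as resident genes, those of macrophages that live in the tissue. Trem2, Gpnmb and Arg1 are taken as recruited genes, those of macrophages that have entered injured tissue. These are names of the sets, and the cells that held the transcripts were not identified.

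All 18 animals were female athymic nude rats of the strain F344/NJcl-rnu/rnu, operated on at 8 weeks of age. The 3 groups, of 6 hearts each, were sham-operated rats, rats with permanent ligation of the proximal left anterior descending artery and no treatment (MI), and ligated rats that received a bi-level sheet of human endothelial progenitor cells (EPCs) and human smooth muscle cells (SMCs) on the epicardium (MI+Cell Sheet). The tissue below the ligation stitch was divided into the infarct, border and remote zones, which gave 54 polyA-selected RNA libraries, 6 for each group in each zone. Sham hearts were divided at the same places and held no infarct. Rats with this mutation lack a thymus and most T cells but keep monocytes and macrophages. The host was thus a model of the innate response without normal T cells. Each library is a piece of whole tissue. The labels call the numbered samples technical replicates, whereas the study describes separate hearts. If the numbers did not mark separate animals, the p-values would measure technical spread only.

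Macrophages reach the heart from more than a single source. Resident macrophages are seeded before birth, renew themselves in place and clear dying cells, haemoglobin and matrix fragments. After an infarct, monocytes enter from the blood and become macrophages that engulf dead cardiomyocytes, and those loaded with lipid switch on a programme in which the receptor TREM2 and the glycoprotein GPNMB are prominent. In bulk tissue, a lower level of a macrophage transcript can come from fewer macrophages or from less of the transcript in each, and these cannot be told apart here.

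Each library held between 12699204 and 23397754 counts on genes. Levels are given as counts-per-million (CPM) after TMM scaling of the library sizes. Group differences were tested with edgeR's quasi-likelihood F test, and a gene is called where the Benjamini-Hochberg adjusted p over all genes tested was under 0.05.

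The 3 libraries of sham replicate 5 stood apart from the other sham libraries. They held 120.5 to 133.3 CPM of Cd68, against 5.90 to 12.95 in the other 15 sham libraries. The T cell list was also high there, with mean log2 CPM of 5.75 to 6.35 over its 4 genes against -2.27 to 1.37 in the other sham libraries, and the dendritic list was at 4.81 to 5.17 against 0.76 to 1.71. The labelled strain lacks a thymus, and the part of these cells in the macrophage values was not tested. In the remote zone, MI+Cell Sheet replicate 1 held 944.9 CPM of Gpnmb against 17.2 to 51.4 in the other 5. The cardiomyocyte score (mean log2 CPM of 10 genes) ranged from 11.1 to 12.95 in sham libraries and was as low as 3.88 in MI+Cell Sheet border replicate 1, against 9.83 to 11.2 in the other 5 libraries of that group. Lung markers reached a mean log2 CPM of 4.57 in MI border replicate 3, 4.61 in MI+Cell Sheet border replicate 4 and 3.38 in MI+Cell Sheet infarct replicate 6, and were at most 0.95 in every other library. Calls of the 10 genes that rest on these libraries are given with and without them where they change. Counts of the other lists, and medians over sets of genes, are given with all libraries.

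**Figure D1:**
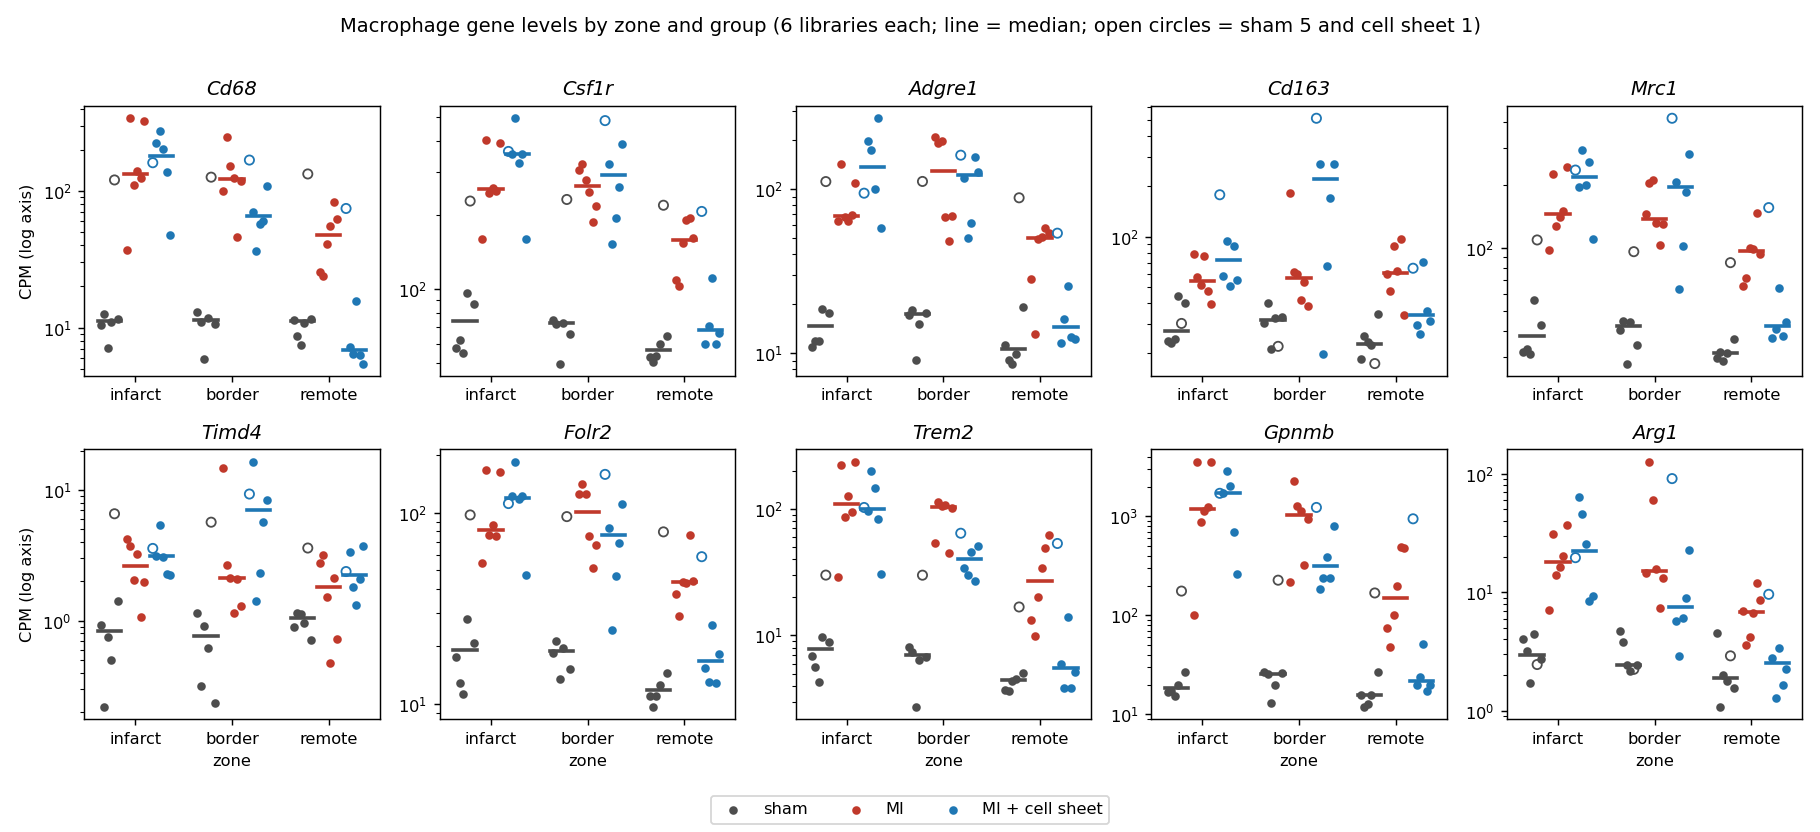
Level of each of the 10 genes in CPM on a log axis, by zone, in sham (grey), MI (red) and MI+Cell Sheet (blue) libraries, with a line at the median of 6. Open circles mark sham replicate 5 and MI+Cell Sheet replicate 1; sham replicate 5 lies above the other sham libraries for 8 of the genes and not for Cd163 or Arg1.

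Compared with sham, MI raised most of these genes in the infarct and border zones. In the infarct zone 8 of the 10 genes were called higher and none lower (22.7% of the 15758 genes tested were called higher), and in the border zone 9 of 10 were called higher and none lower (18.4% of 15641). In the remote zone the count was 5 of 10 and none lower (11.7% of 15294). With all hearts, the fitted rise in the infarct zone was largest in the recruited genes, with a median log2 fold change of 3.59 for these 3 genes. It was 1.54 for the 3 general markers, 1.30 for the 4 resident genes and -0.02 for all genes tested. Sham replicate 5 is included in these medians, and it was above the other sham libraries for every one of these genes except Cd163 and Arg1. Medians without it are not given, and how far the gap between the sets rests on that heart was not tested.

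Among the general markers, Cd68 encodes a glycoprotein of the macrophage lysosome. Its lowest, median and highest levels in the infarct zone were 7.15, 11.3 and 120.5 CPM in sham and 36.7, 132.5 and 340.9 CPM in MI. The groups overlapped only through sham replicate 5, and the difference was 6.11-fold (log2 2.61 ± 0.81 SE, edgeR adjusted p = 0.0179, n = 6 against 6). Without that heart it was 17.0-fold (edgeR adjusted p = 7.3e-05). Csf1r, the receptor through which macrophages receive their survival signal, rose from a median of 74.5 CPM (54.8 to 228.4) to 255.3 CPM (160.0 to 406.2) in the infarct zone, or 2.91-fold (edgeR adjusted p = 0.00576). Adgre1, which encodes the surface protein F4/80, was not called there (2.80-fold, edgeR adjusted p = 0.0519), and was called without sham replicate 5 (log2 2.61, edgeR adjusted p = 2.15e-05).

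In the border zone all 3 general markers were called higher. Cd68 had lowest, median and highest levels of 5.90, 11.3 and 126.3 CPM in sham and 46.0, 121.9 and 246.7 CPM in MI, a 4.4-fold difference (edgeR adjusted p = 0.0379). Csf1r differed 2.75-fold (edgeR adjusted p = 0.00733), and Adgre1 differed 4.13-fold (edgeR adjusted p = 0.0248). The border calls of Cd68 and Adgre1 were close to the threshold. That of Cd68 was lost when any of 9 libraries was left out singly (sham replicates 1, 2, 3, 4 and 6 and MI replicates 2, 3, 4 and 6, adjusted p up to 0.0809), and that of Adgre1 when any of 5 was (sham replicates 1, 2, 4 and 6 and MI replicate 3, adjusted p up to 0.054). None of the 3 was called in remote tissue. There Cd68 had a median of 11.1 CPM in sham (7.45 to 133.3) and 47.9 CPM in MI (24.04 to 82.9), so that 5 of 6 sham libraries lay under every MI library and the sixth lay above all of them. The fitted difference was 1.56-fold with all hearts (edgeR adjusted p = 0.538) and 4.88-fold without sham replicate 5 (edgeR adjusted p = 5.1e-05).

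Of the resident genes, Cd163 and Mrc1 rose in every zone, Folr2 rose at the infarct and border, and Timd4 was called in no zone with all hearts. Cd163 encodes the scavenger receptor for haemoglobin bound to haptoglobin. In the infarct zone its lowest, median and highest levels were 23.1, 27.4 and 44.2 CPM in sham and 39.8, 54.4 and 79.2 CPM in MI, with the lower MI libraries overlapping the upper sham libraries. The difference was 1.88-fold (log2 0.91 ± 0.22, edgeR adjusted p = 0.00518), then 2.43-fold in the border zone (edgeR adjusted p = 0.0156) and 2.74-fold in the remote zone (edgeR adjusted p = 0.00189). Cd163 was within the range of the other sham libraries in the border and infarct zones of sham replicate 5 and the lowest of the 6 in the remote zone, at 17.4 CPM, and leaving that heart out changed none of these 3 calls.

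Mrc1 encodes the mannose receptor. It rose 3.23-fold in the infarct zone (edgeR adjusted p = 0.00277), 3.22-fold in the border zone (edgeR adjusted p = 0.00179) and 2.35-fold in the remote zone (edgeR adjusted p = 0.00888). In the border zone the groups did not overlap, with 27.9, 42.1 and 95.8 CPM as the lowest, median and highest in sham and 103.3, 137.7 and 211.4 CPM in MI. Folr2, a folate receptor of resident macrophages, rose 3.28-fold in the infarct zone (edgeR adjusted p = 0.0191) and 3.18-fold in the border zone (edgeR adjusted p = 0.0194). In remote tissue its 1.95-fold difference was not called (edgeR adjusted p = 0.190), and without sham replicate 5 it was 3.88-fold (edgeR adjusted p = 1.7e-05).

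Timd4, which encodes the phosphatidylserine receptor TIM-4 of long-lived resident macrophages, was the lowest of the 10 genes in counts. Its lowest, median and highest levels in the infarct zone were 0.22, 0.84 and 6.58 CPM in sham and 1.07, 2.64 and 4.24 CPM in MI. The highest sham value was that of replicate 5, and the 1.52-fold difference was not called (edgeR adjusted p = 0.472). Without that heart Timd4 was 3.59-fold higher in the infarct zone (edgeR adjusted p = 0.00416) and 6.08-fold higher in the border zone (edgeR adjusted p = 0.0111), and its 1.84-fold difference in the remote zone was not called (edgeR adjusted p = 0.122).

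The recruited genes rose in every zone. Trem2 encodes a lipid-sensing receptor of phagocytes. In the infarct zone its lowest, median and highest levels were 4.29, 7.84 and 29.98 CPM in sham and 28.9, 109.9 and 236.3 CPM in MI, and only MI replicate 1 lay below the highest sham library. The difference was 12-fold in the infarct zone (log2 3.59 ± 0.60, edgeR adjusted p = 0.000908), 8.54-fold in the border zone (edgeR adjusted p = 0.00141) and 4.89-fold in the remote zone (edgeR adjusted p = 0.00773). In the border zone the groups did not overlap, with at most 29.9 CPM in sham and at least 44.8 CPM in MI.

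Gpnmb encodes a transmembrane glycoprotein induced in macrophages with burdened lysosomes, and it changed most of the 10 genes in the infarct and border zones. Its lowest, median and highest levels in the infarct zone were 15.4, 18.4 and 175.9 CPM in sham and 100.5, 1193 and 3574 CPM in MI. The other 5 MI libraries, at 870.1 CPM or more, lay above every sham library, and only MI replicate 1 lay among them. The difference was 37.9-fold (log2 5.24 ± 0.98, edgeR adjusted p = 0.0017), then 18.2-fold in the border zone (edgeR adjusted p = 0.00412) and 5.44-fold in the remote zone (edgeR adjusted p = 0.0433). The remote value is close to the threshold. It lost the call when any of 9 libraries was left out singly (sham replicates 1, 2, 3, 4 and 6 and MI replicates 3, 4, 5 and 6, adjusted p up to 0.102), and without sham replicate 5 it was 14.1-fold (edgeR adjusted p = 0.000165).

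Arg1 encodes arginase 1, which turns arginine into ornithine and urea in macrophages of the alternatively activated kind. At the infarct its levels did not overlap, with 1.73, 2.97 and 4.48 CPM as the lowest, median and highest in sham and 7.05, 18.2 and 37.3 CPM in MI, a 6.72-fold difference (log2 2.75 ± 0.39, edgeR adjusted p = 0.000337). In the border zone the groups did not overlap either, and the MI libraries spread from 7.37 to 126.4 CPM around a median of 15.1 CPM (13.4-fold, edgeR adjusted p = 0.00264). The remote difference was 3.02-fold (edgeR adjusted p = 0.00846). Arg1 in sham replicate 5 was between 2.24 and 2.91 CPM, inside the range of the other sham libraries in each zone, although Cd68, Trem2 and Gpnmb were high in the same libraries.

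Sham replicate 5 weighed on all genes and not on these 10 alone. Without it, all 10 genes were called higher in the infarct zone (34.1% of 16107 genes tested), all 10 in the border zone (31.9% of 15849) and 9 in the remote zone (23.7% of 15444). The cardiomyocyte list moved with the same contrast, with all 10 of its genes called lower in infarct and in border tissue. With the cardiomyocyte score as a covariate, 2 of the 10 macrophage genes, Trem2 and Gpnmb, were called higher at the infarct. At the border the count was 3 (Mrc1, Trem2 and Gpnmb). In remote tissue it was 2 (Cd163 and Mrc1), and Cd68 was called lower (log2 -0.66, edgeR adjusted p = 0.0432). Over all genes these fits called 720, 1016 and 2626, against 7866, 6517 and 3952 without the covariate. Cd163, whose calls were lost at the infarct and border, was at log2 1.13 at the infarct (edgeR adjusted p = 0.0548) and 1.72 at the border (edgeR adjusted p = 0.0553). The score and the group moved together, so these fits cannot tell the injury apart from the loss of cardiomyocyte RNA.

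**Figure D2:**
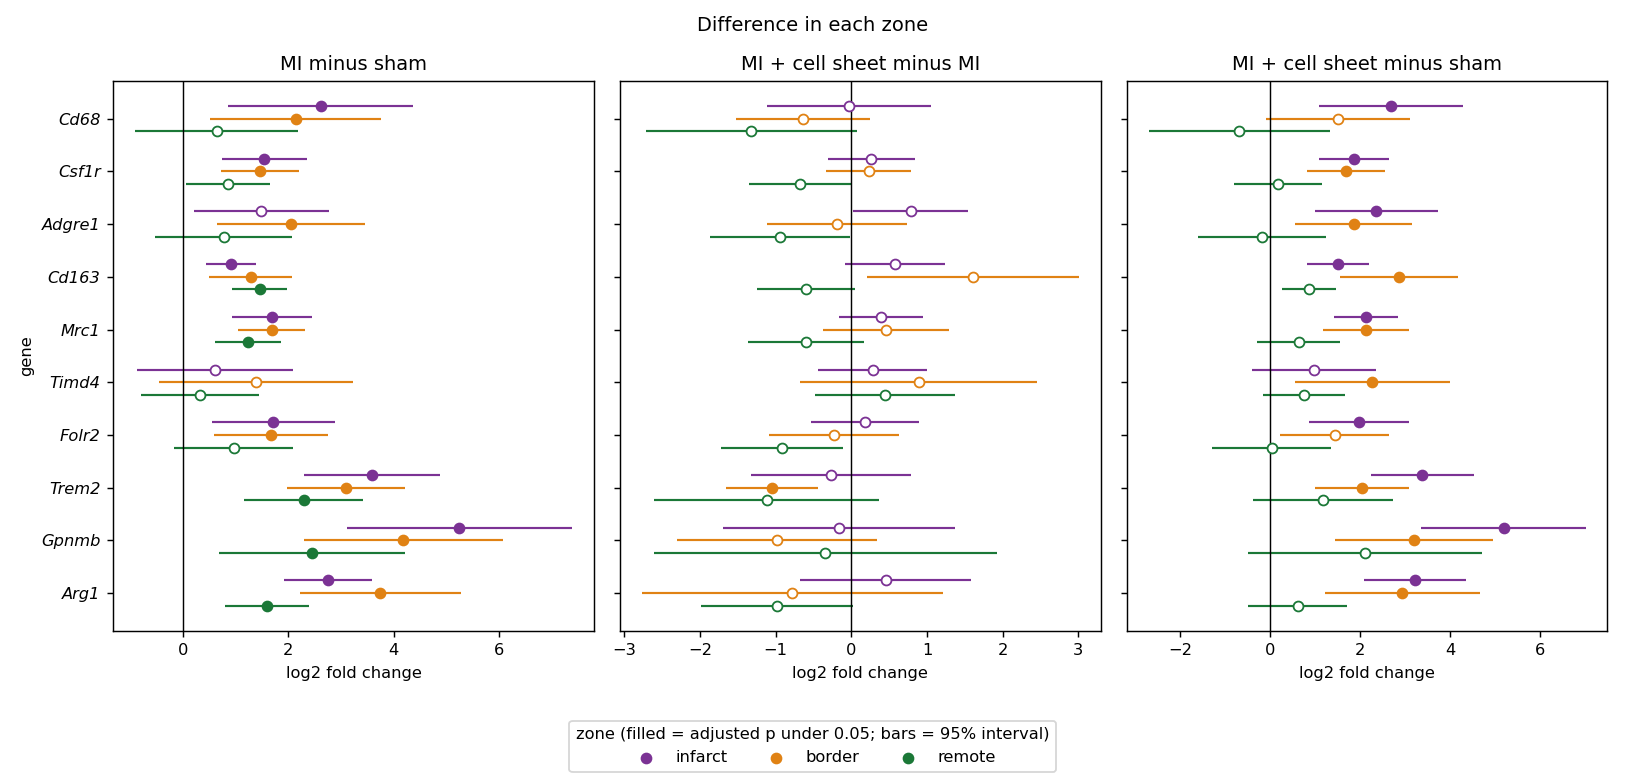
Log2 fold change of each gene with its 95% interval in the infarct (purple), border (orange) and remote (green) zones for MI minus sham, MI+Cell Sheet minus MI and MI+Cell Sheet minus sham. Filled points have an edgeR adjusted p under 0.05; the only filled point for MI+Cell Sheet minus MI is Trem2 in the border zone.

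Whether the response to MI differed between zones was tested with each animal as a block. Cd68 rose more in the infarct zone than in the remote zone, by a log2 difference of 1.62 ± 0.46 (edgeR adjusted p = 0.0187), and so did Gpnmb, by 2.43 ± 0.70 (edgeR adjusted p = 0.0194). These were the 2 genes of the 10 called in this test, where 13.6% of 16445 genes were called with a larger rise in the infarct zone. Trem2 had a log2 difference of 1.29 (95% interval 0.26 to 2.32, edgeR adjusted p = 0.0578) and was not called. Cd163 had its larger difference in the remote zone, and the test gave -0.47 (95% interval -1.06 to 0.11, edgeR adjusted p = 0.204). No gene of any kind was called in edgeR between the infarct and border zones or between the border and remote zones. At an unadjusted p under 0.05 these tests held 0 and 3 of the 10 genes and 1430 and 3995 of all genes, and DESeq2 called 68 and 1411 genes. Without MI replicate 5, edgeR called 1539 genes between the border and remote zones, among them Cd68 (log2 1.82, adjusted p = 0.0254) and Gpnmb (log2 2.32, adjusted p = 0.0484).

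The comparison of MI+Cell Sheet with MI addresses what the sheet changed in the injured heart. At the infarct none of the 10 genes was called, and none of the 16196 genes tested was either (0%). At an unadjusted p under 0.05 the test held 1 of the 10, Adgre1, and 1341 of all genes, and DESeq2 called 56 genes. Trem2 had lowest, median and highest levels of 28.9, 109.9 and 236.3 CPM in MI and 30.8, 99.7 and 198.8 CPM in MI+Cell Sheet, with a log2 difference of -0.27 (95% interval -1.32 to 0.78). Gpnmb differed by -0.16 (95% interval -1.69 to 1.36), and Cd163 by 0.58 (95% interval -0.09 to 1.24). The libraries of both groups overlapped for these 3 genes, and the intervals for Trem2 and Gpnmb hold falls of over 2-fold, so equal levels were not shown.

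In the border zone, Trem2 was lower with the cell sheet. Its lowest, median and highest levels were 44.8, 104.1 and 112.6 CPM in MI and 27.1, 39.9 and 64.2 CPM in MI+Cell Sheet. MI replicates 2, 3, 4 and 6, at 102.5 CPM or more, lay above every MI+Cell Sheet library, and MI replicates 1 and 5 lay among them. Trem2 fell 2.07-fold (log2 -1.05 ± 0.28, edgeR adjusted p = 0.0219), and it was the only gene of the 10 called, against 9.48% of 16272 genes called lower and 8.47% called higher. With the cardiomyocyte score as a covariate Trem2 was called lower (log2 -1.19, edgeR adjusted p = 0.0025), together with Cd68 (log2 -0.90), Gpnmb (log2 -1.35) and Arg1 (log2 -1.66). That fit called 4702 genes in all, against 2922 without the covariate. The score in the MI+Cell Sheet border libraries ran from 3.88 to 11.24 with a median of 11.05, and the weight of the lowest library was not tested. Without the covariate, the Trem2 call was lost on leaving out MI+Cell Sheet replicate 2 (edgeR adjusted p = 0.0586) or replicate 5 (edgeR adjusted p = 0.0551). It was also lost when all 9 groups shared a fit (edgeR adjusted p = 0.213).

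The adaptor proteins through which TREM2 signals showed the same direction there. Tyrobp, which encodes DAP12, was lower (log2 -1.12), as was Hcst, which encodes DAP10 (log2 -1.19 ± 0.29, edgeR adjusted p = 0.0155). They were the 2 of 9 genes called in the list of TREM2 signalling, where 9.48% of all genes tested were called lower. The lists below stand against the same share, and their counts of 2 of 16 and 1 of 16 lie near it. Tyrobp had a median of 141.4 CPM in MI (74.9 to 289.3) and 60.6 CPM in MI+Cell Sheet (39.9 to 128.5). Of 16 other general macrophage genes, Lyz2 (log2 -1.40) and Mpeg1 (log2 -0.85) were called lower and none higher. The median log2 fold change of these 16 general genes was -0.71. Of 16 other genes of lipid-associated macrophages, Cd9 was called lower (log2 -0.53), and the median log2 fold change of that list was -0.52 against -0.00 over all genes tested. Gpnmb itself had medians of 1032 CPM in MI (218.9 to 2268) and 316.5 CPM in MI+Cell Sheet (186.6 to 1231), a log2 difference of -0.98 that was not called (95% interval -2.30 to 0.34, edgeR adjusted p = 0.293). None of 9 other resident genes was called there. Of 4 T cell genes, Cd3d (log2 -1.93) and Cd3g (log2 -1.86) were called lower as well, and their part was not tested. Tyrobp, Lyz2, Mpeg1, Cd9, Cd3d and Cd3g were named after their values were seen.

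Cd163 had the opposite sign in the same tissue. Its lowest, median and highest levels in the border zone were 38.5, 56.7 and 182.7 CPM in MI and 19.9, 220.5 and 510.9 CPM in MI+Cell Sheet. MI+Cell Sheet replicates 1, 2, 5 and 6 lay at 169.2 CPM or above, and replicates 3 and 4 lay at 19.9 and 67.1 CPM, among the MI libraries. The 3.05-fold difference was not called (log2 1.61, 95% interval 0.21 to 3.01, edgeR adjusted p = 0.105), and DESeq2 called it (adjusted p = 0.0386), as did the fit of all 9 groups in which Trem2 was not called (log2 1.58, edgeR adjusted p = 0.00467). Without MI replicate 1, the highest MI library at 182.7 CPM, edgeR called it too (log2 2.11, adjusted p = 0.0457), as it did without MI+Cell Sheet replicate 3 (log2 1.85, adjusted p = 0.0288). Timd4 differed in the same direction, with medians of 2.10 CPM in MI and 7.03 CPM in MI+Cell Sheet, and was not called (edgeR adjusted p = 0.429) except without MI replicate 1 (log2 1.98, edgeR adjusted p = 0.0393). Mrc1 (log2 0.46) and Folr2 (log2 -0.23) were not called.

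Transcripts of fat and mast cells moved with Cd163 in the border zone. The adipocyte score, the mean log2 CPM of 10 adipocyte genes, was 2.07, 2.82 and 4.82 as the lowest, median and highest in MI and 2.35, 6.08 and 7.19 in MI+Cell Sheet. The 4 MI+Cell Sheet libraries with the most Cd163 were those with scores of 5.66 to 7.19, and the library with the least Cd163, replicate 3, had the lowest score of its group. In the MI group, replicate 1 had both the highest Cd163 and the highest adipocyte score. Of 9 adipocyte genes tested, 4 were called higher with the sheet (Plin1, Cidec, Pparg and Lipe) and none lower, and of 6 mast cell genes, 4 were called higher (Cpa3, Kit, Mcpt1l1 and Ms4a2). Among all genes tested there, 8.47% were called higher. Adipoq, the adiponectin gene that defines adipocytes, reached 233.2 CPM in MI+Cell Sheet border libraries with a median of 82.6 CPM, against a median of 0.11 CPM and a highest value of 18.8 CPM in MI, and was not called (edgeR adjusted p = 0.0714). With the adipocyte score as a covariate the difference in Cd163 was -0.59 (edgeR adjusted p = 0.412) and that in Trem2 was -1.18 (edgeR adjusted p = 0.0935). Trem2 was at 29.8 CPM in the MI+Cell Sheet library with the lowest score, replicate 3, and at 27.1 to 64.2 CPM in the 4 with the highest. The score and the group moved together, so the fat and the sheet cannot be told apart in these fits.

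**Figure D3:**
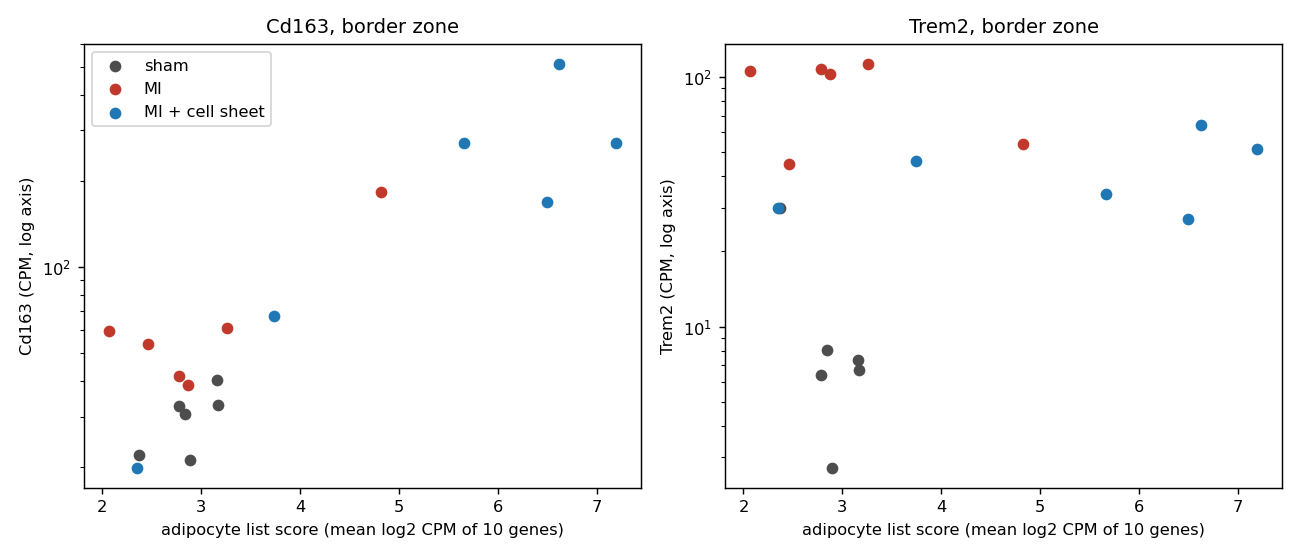
Cd163 (left) and Trem2 (right) in CPM on a log axis against the adipocyte score, in the 18 border zone libraries of the sham (grey), MI (red) and MI+Cell Sheet (blue) groups. The 4 blue points with scores of 5.66 or more hold 169.2 to 510.9 CPM of Cd163, while 4 of 6 red points lie above every blue point for Trem2.

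In the remote zone, 9 of the 10 genes had lower fitted levels with the cell sheet than in MI and none was called (6.79% of 15374 genes were called lower and 10.3% higher). At an unadjusted p under 0.05 the test held 2 of the 10, Folr2 and Adgre1, and 5365 of all 15374 genes. Gpnmb had lowest, median and highest levels of 48.1, 148.9 and 490.4 CPM in MI and 17.2, 21.8 and 944.9 CPM in MI+Cell Sheet, where only replicate 1 lay above the MI median. The other 5 libraries reached at most 51.4 CPM, against a sham median of 15.7 CPM.

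Without MI+Cell Sheet replicate 1, 8 of the 10 genes were called lower with the sheet in the remote zone, against 20.8% of 15502 genes. Cd68 then fell 5.97-fold (edgeR adjusted p = 0.0003), with 5.45 to 15.5 CPM in 5 MI+Cell Sheet libraries and 24.04 to 82.9 CPM in 6 MI libraries. Gpnmb fell 8.83-fold (edgeR adjusted p = 0.0015) and Trem2 fell 4.83-fold (edgeR adjusted p = 0.00297). Folr2 fell 2.69-fold, Mrc1 2.17-fold and Arg1 3.08-fold, each with an edgeR adjusted p of 0.00225 or less, and Csf1r and Adgre1 were called as well. Cd163 (log2 -0.75, edgeR adjusted p = 0.0533) and Timd4 (log2 0.45, edgeR adjusted p = 0.453) were not. Replicate 1 was set apart by its own Gpnmb level and held the highest Cd68 of its group, at 74.5 CPM. The p-values without it are thus those of a choice made on these same genes. Leaving out 1 library at a time gave 0 to 8 called genes, and this fit gave the most. The fibroblast score of replicate 1 was 11.5, against 8.15 to 9.72 in the other 5 remote libraries of its group, and its cardiomyocyte score was 11.1, the lowest of the 6. The part of these cells in the result was not tested.

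**Figure D4:**
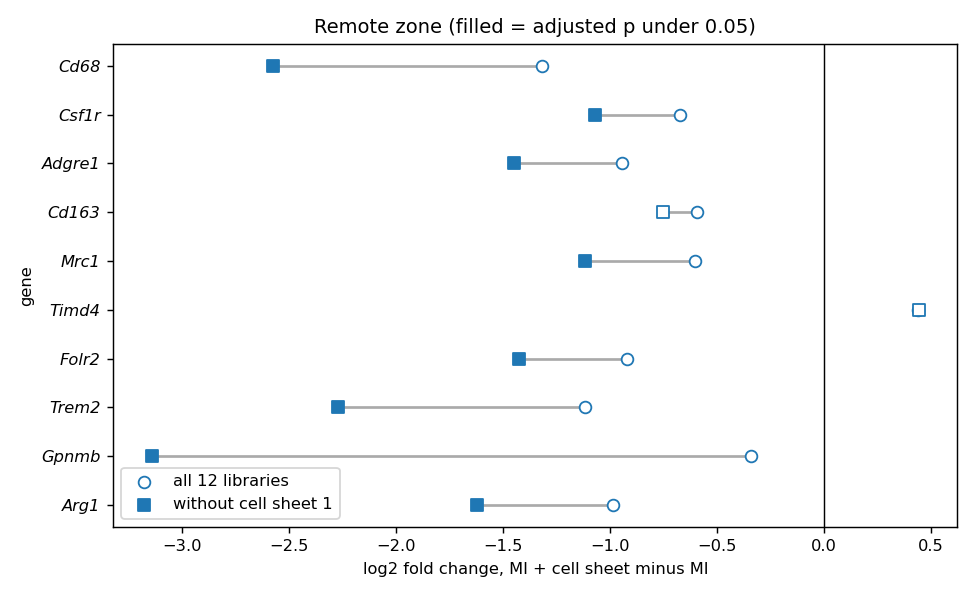
Log2 fold change of MI+Cell Sheet minus MI in the remote zone with all 12 libraries (circles) and without MI+Cell Sheet replicate 1 (squares); filled symbols have an edgeR adjusted p under 0.05. None of the circles is filled, 8 of the 10 squares are, and Timd4 lies above 0 in both fits. Replicate 1 was set apart by its own Gpnmb level.

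Other genes of the pathways moved with the remote comparison in part. With all 12 libraries, Lyve1, F13a1 and Vsig4 were called lower among 8 other resident genes tested, and C1qb, C1qc and Fcgr1a among 16 other general macrophage genes. Among all genes tested there, 6.79% were called lower and 10.3% higher. Among 11 genes of arginine metabolism and alternative activation, Nos2 (log2 -3.08), Il1rn (log2 -2.69), Clec10a (log2 -1.19) and Ass1 (log2 -0.94) were called lower, and Oat was called higher (log2 0.36). Nos2 encodes the inducible nitric oxide synthase, which uses the same arginine as arginase. Its lowest, median and highest levels were 3.36, 15.9 and 97.8 CPM in MI and 1.94, 3.12 and 4.64 CPM in MI+Cell Sheet. The neutrophil genes S100a8 and S100a9 were called lower too, and their part in these values was not tested. These genes were named after their values were seen.

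The zone dependence of the cell sheet difference was tested in the same way as for MI. None of the 10 genes, and no gene at all, was called in edgeR between any 2 zones with all animals. Between infarct and remote zones, 6 of the 10 had an unadjusted p under 0.05, as did 4190 of all 16902 genes tested. The smallest edgeR adjusted p among the 10 was 0.13. Without MI+Cell Sheet replicate 1, Cd68 (log2 2.70, edgeR adjusted p = 0.0248), Csf1r, Adgre1 and Mrc1 were called, with the sheet minus MI difference higher in the infarct than in the remote zone, in a fit that called 2011 genes in all. Between border and remote zones that heart's absence gave 216 called genes, and none of the 10 was among them. DESeq2 with all animals called Cd68, Adgre1, Cd163 and Mrc1 between infarct and remote zones, in a fit that called 1611 genes in all. Between border and remote zones DESeq2 called Cd163 (adjusted p = 0.0393) and 1067 genes in all. A lower Trem2 in the border zone was not shown to differ from its difference in the infarct zone (edgeR adjusted p = 0.581) or the remote zone (edgeR adjusted p = 0.598).

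Against sham, the hearts with a cell sheet still held high macrophage levels at the injury. In the infarct zone 9 of 10 genes were called higher (28.6% of 15687), with Gpnmb 36.2-fold and Trem2 10.4-fold above sham. Timd4 was not called there with all hearts, and was called without sham replicate 5 (log2 2.12, edgeR adjusted p = 0.000806). In the border zone 8 of 10 were called higher (20.4% of 15960), and Cd68 (edgeR adjusted p = 0.116) and Folr2 (edgeR adjusted p = 0.0538) were not. Both were called without sham replicate 5, Cd68 at 7.9-fold (edgeR adjusted p = 8.09e-05) and Folr2 at 4.61-fold (edgeR adjusted p = 0.000699). The calls of Timd4 and Adgre1 were lost without single libraries (adjusted p up to 0.0861 and 0.0536). Cd163 was 7.27-fold above sham in the border zone with the sheet (log2 2.86 ± 0.60, edgeR adjusted p = 0.00259). With the adipocyte score as a covariate that difference was 1.18-fold (edgeR adjusted p = 0.767), and none of the 10 genes was called, with Trem2 at log2 1.95 (edgeR adjusted p = 0.0809) and Gpnmb at 2.53 (edgeR adjusted p = 0.154). That fit called 2147 genes in all, against 6955 without the covariate. Among remote libraries none of the 10 was called, where 0.00660% of 15157 genes were, that is 1 gene. At an unadjusted p under 0.05 that test held 1 of the 10, Cd163, and 1520 of all genes. Without sham replicate 5 and MI+Cell Sheet replicate 1, the fitted Cd68 difference in the remote zone was -0.30 on the log2 scale (edgeR adjusted p = 0.627) and that of Trem2 was 0.61 (edgeR adjusted p = 0.402). The same sham and MI hearts enter several of these comparisons, which are therefore not independent.

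The contrast of the 2 sets of genes was described by a balance, the mean log2 CPM of Trem2, Gpnmb and Arg1 minus that of Cd163, Mrc1, Timd4 and Folr2. In sham libraries it lay between -1.41 and -0.13 in all zones, and sham replicate 5 was within that range, at -0.33 to -0.68. In MI it had a median of 1.96 in the infarct zone (-0.42 to 2.89), 2.12 in the border zone (-0.59 to 2.76) and 0.17 in the remote zone (-0.97 to 1.79). MI replicate 1 was the lowest library in the infarct and border zones, within the range of the sham libraries. With the cell sheet the median was 1.63 in the infarct zone (0.57 to 2.25), 0.31 in the border zone (-1.49 to 0.92) and -1.24 in the remote zone (-1.51 to 1.18). The mean difference between MI+Cell Sheet and MI was -1.54 in the border zone, -1.07 in the remote zone and -0.27 in the infarct zone. Of the 7 genes in the balance, Trem2 was the only gene called at the border, and none was called in remote tissue. No test was made of the balance, since its genes were chosen with these results known.

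**Figure D5:**
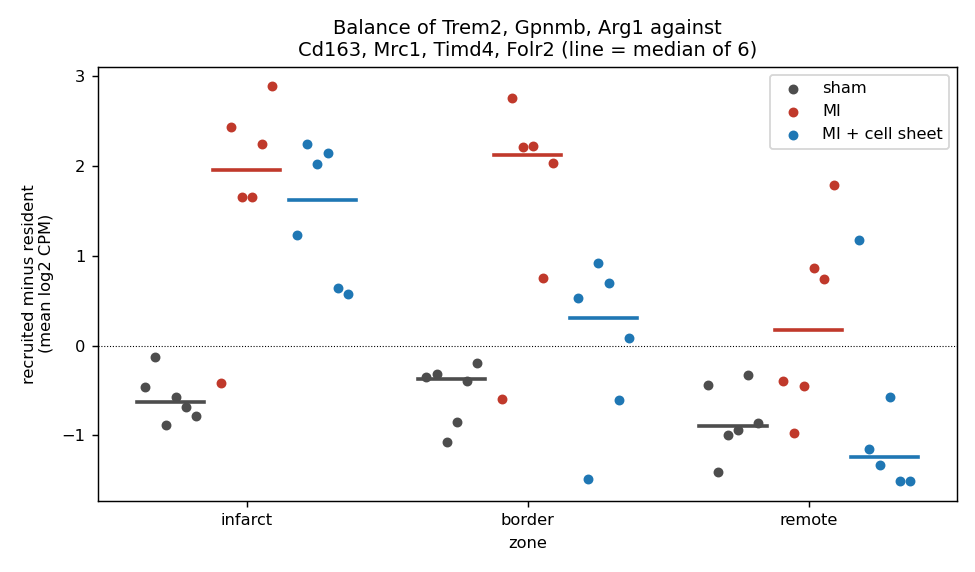
Mean log2 CPM of the 3 recruited genes minus that of the 4 resident genes in each library, by zone, for sham (grey), MI (red) and MI+Cell Sheet (blue), with a line at the median of 6. The sham libraries lie between -1.41 and -0.13, and the MI border median of 2.12 lies above the MI+Cell Sheet border median of 0.31.

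The members were also set against Csf1r in the same library, as a ratio that does not depend on how much of the piece was macrophage if Csf1r per cell is steady, which was not tested. The log2 ratio of Trem2 to Csf1r had a median of -3.27 in sham border libraries (-4.14 to -2.95), -1.46 in MI (-2.50 to -1.09) and -2.92 in MI+Cell Sheet (-3.26 to -2.08). On this ratio the MI+Cell Sheet border median lay nearer to the sham median than to that of MI. For Gpnmb against Csf1r it lay nearer to MI, with border medians of -1.49 in sham, 2.14 in MI and 0.83 in MI+Cell Sheet. With Cd68 as the reference, the border medians of Trem2 in sham, MI and MI+Cell Sheet were -0.77, -0.37 and -1.06. Those of Gpnmb were 1.09, 3.02 and 2.75. Arg1 had -1.79, -2.7 and -2.98 against Cd68 and -4.5, -4.02 and -4.91 against Csf1r. The size of the change after MI, and for Arg1 its direction, thus depended on the reference gene. At the infarct the medians of Trem2 against Csf1r were -3.29 in sham, -1.23 in MI and -1.85 in MI+Cell Sheet. Those of Gpnmb against Csf1r were -1.8, 2.22 and 2.26. Mrc1 followed Csf1r closely throughout, with group medians of the log2 ratio between -0.89 and -0.57. Cd163 against Csf1r was lower in MI than in sham in the border zone, with medians of -2.31 and -1.19, and was at -0.57 with the cell sheet.

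Across all 54 libraries, the 45 pairs among the 10 genes had Pearson correlations of log2 CPM from 0.40 to 0.98. These values describe libraries that share groups, zones and animals, and no test was made of them. Cd68, Csf1r, Adgre1, Mrc1, Folr2, Trem2 and Gpnmb moved together, with correlations of 0.89 or more for every pair of them. Cd163 and Timd4 stood apart, with at most 0.75 and 0.64 to any other member. Among 13290 genes compared, those most like Trem2 were Gpnmb (r = 0.982), Igsf7 (0.979), Apoe (0.979), Arl11 (0.978) and Slc66a3 (0.977), over 54 libraries. Those most like Cd163 were Aldh1a3 (r = 0.899), Lyve1 (0.895), Tf (0.882), Cdon (0.873) and Enpp2 (0.867). Apoe encodes the lipid carrier apolipoprotein E, and Lyve1 encodes a hyaluronan receptor of perivascular resident macrophages and lymphatic vessels.

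RefSeq (build GRCr8, not the build of the counts) gave a promoter for 9 of the 10 genes, and those of Trem2 and Gpnmb, which moved together closely (r = 0.98), and of Cd163, which stood apart, are given as the 250 bases before the annotated start, 5′ to 3′ on the gene's own strand. Capitals mark matches to GAGGAA, the core of sites bound by the macrophage factor PU.1, or to CATGTG, the M-box read by factors of the MITF family, on either strand.
Trem2, chr9:20151780-20152029, minus strand: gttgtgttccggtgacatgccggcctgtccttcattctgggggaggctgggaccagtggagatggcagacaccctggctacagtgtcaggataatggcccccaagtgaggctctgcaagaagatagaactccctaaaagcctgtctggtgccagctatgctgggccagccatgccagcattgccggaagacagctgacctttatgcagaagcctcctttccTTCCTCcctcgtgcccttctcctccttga
Gpnmb, chr4:79340878-79341127, plus strand: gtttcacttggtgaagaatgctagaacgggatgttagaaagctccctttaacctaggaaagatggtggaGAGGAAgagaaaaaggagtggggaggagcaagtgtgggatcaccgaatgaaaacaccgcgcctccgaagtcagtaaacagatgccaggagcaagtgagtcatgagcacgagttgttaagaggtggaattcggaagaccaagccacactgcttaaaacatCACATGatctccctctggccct
Cd163, chr4:158770524-158770773, plus strand: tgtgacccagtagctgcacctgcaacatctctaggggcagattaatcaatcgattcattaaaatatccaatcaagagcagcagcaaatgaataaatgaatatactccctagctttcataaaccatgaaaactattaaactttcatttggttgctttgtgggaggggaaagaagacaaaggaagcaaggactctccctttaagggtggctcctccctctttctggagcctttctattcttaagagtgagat
The GAGGAA letters were found in this window in 6 of the 9 members, against 23.3% of 33469 promoters, and CATGTG in 3 of 9 (Cd68, Mrc1 and Gpnmb), against 12.1%. CACGTG, the E-box form read by the same family, was found in none of the 9, against 5.59%. Gpnmb held a CATGTG match, on the minus strand, beginning 22 bases before the start, and Trem2 held a GAGGAA match on the minus strand beginning 29 bases before it. Cd163 held none of these letters in this window. A match describes letters and not binding.

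The other genes of these pathways were counted from lists rather than picked by their change, and are read against the 22.7%, 18.4% and 11.7% of all genes called higher after MI at the infarct, the border and in remote tissue. Of the 15 other lipid-associated genes tested in the infarct zone, 10 were called higher and Lpl lower. Spp1, which encodes the secreted matrix protein osteopontin, had lowest, median and highest levels of 0.58, 2.40 and 35.3 CPM in sham and 22.3, 710.8 and 3297 CPM in MI (log2 7.31). Apoe was higher by a log2 of 3.89, Mmp12 by 4.34 and Lgals3 by 2.77. Only Ctsb (log2 1.86 ± 0.33, edgeR adjusted p = 0.0012) was called with groups that did not overlap. The border zone called 8 of 15 higher and Lpl lower, and the remote zone called 5 of 15 higher, Spp1 (log2 4.05) and Apoe (log2 1.94) among them.

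Of 9 other resident genes tested, 6 were called higher at the infarct and 6 at the border, as were 6 of 8 in remote tissue, and none was lower. Pltp, a phospholipid transfer protein, led at the infarct among those whose groups did not overlap (log2 2.20 ± 0.34, edgeR adjusted p = 0.000584), followed by the scavenger receptor Stab1 (1.73) and the transcription factor Maf (1.60). In the remote zone Lyve1 (log2 1.53 ± 0.29, edgeR adjusted p = 0.00332) and F13a1 (log2 1.17) did not overlap between the groups. Of 12 genes of macrophage growth factors and lineage, 6 were called higher in the infarct zone, among them Csf1, the ligand of Csf1r (log2 0.79), and Runx1 (log2 2.24), and none in the remote zone. Of 13 genes of the clearance of dying cells, 9 were called higher in the infarct zone, with Mertk (log2 1.06), Lrp1 (log2 1.42) and Msr1 (log2 2.22) among them, and Cd36 was called lower (log2 -1.97). Cd36 is also a fatty acid transporter of cardiomyocytes and vessels. Among the other genes of these pathways, Spp1, Apoe, Mmp12, Lgals3, Lpl, Csf1, Runx1, Mertk, Msr1 and Cd36 were named after their values were seen.

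Genes of other cell types in the pieces moved with the same contrast. Of 7 fibroblast genes, 6 were called higher after MI in the infarct zone (median log2 2.81), and 4 of 5 neutrophil genes were. Of 9 monocyte genes 2 were called higher there, Ace and Hp, and Ly6c lower, and Ccr2, the receptor of recruited monocytes, had medians of 7.77 CPM in sham and 16.3 CPM in MI, with sham replicate 5 at 93.5 CPM. None of the 6 dendritic or 4 T cell genes tested was called with all hearts, among them sham replicate 5, which was high in both lists. The median T cell score at the infarct was -0.45 in sham and 1.43 in MI, and the median dendritic score was 1.17 and 2.09. Calls of these genes without that heart are not given here. The part of these cells in the levels of the 10 genes was not tested.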

How the data were processed

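RNA from 54 pieces of rat left ventricle was sequenced, 6 per group in each of 3 zones. The authors aligned the reads to the rat genome mRatBN7.2 with STAR and deposited whole-number counts per gene, 1 table per library. The program that counted the reads, and whether it used strand, is not given in the sources used here. Reads of the transplanted human cells were not analysed here. The 5 summary lines in each table, 16.99% to 42.8% of its total, were left out. Each comparison was fitted on the counts of its 12 libraries with edgeR 4.0.16 in R 4.3.3 (filterByExpr, TMM scaling, quasi-likelihood F test, Benjamini-Hochberg threshold 0.05), and comparisons between zones had the animal as a block. Libraries of a treatment with the same replicate number were taken as zones of 1 heart. Levels are CPM with TMM over all libraries, and log2 levels have an offset of 0.1 CPM. A score is the mean log2 CPM of a list of genes, of which there were 21. Counting error is smallest for the deepest libraries, and Timd4, with as few as 3 counts in a library, is the least precise of the genes. No pair of libraries within a group held equal counts: over 135 pairs, chi-square per degree of freedom was 7.97 to 539.

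The members, lists and tests were chosen with earlier results of these data known. Genes of the lists were named where they were the 3 with the largest change among those called with no overlap between groups, and otherwise as stated. On simulated counts for MI against sham in the border zone, with 200 of 15449 genes changed by log2 2, 167 were called and 160 of these were changed genes. On those for the border against the remote zone, with 200 of 16244 genes changed, 174 were called, of which 166 were changed. The alternatives were DESeq2 1.42.0 (the tool the authors used), other filters and scaling, a replicate block, a single fit of all 9 groups, a log2 threshold of 1, cardiomyocyte and adipocyte scores as covariates, and leaving out each library in turn. A fit without sham replicate 5 and MI+Cell Sheet replicate 1 together was added after the data were seen. Gene-level analysis used symbols as deposited, and no genome of the build was used here.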

Additional observations from a re-analysis of the deposited data

Results flagged for a closer look

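In 21 of 90 groups of 6 libraries, 1 library lay farther from the rest than Dixon's 95% critical value allows, where chance gives about 1 in 20 groups. Of these, 16 were sham replicate 5. Its remote library held 133 CPM of Cd68, 220 of Csf1r, 88.4 of Adgre1, 84.9 of Mrc1, 3.6 of Timd4, 79.5 of Folr2, 16.8 of Trem2 and 168 of Gpnmb. Its border library held 126 CPM of Cd68, 232 of Csf1r, 111 of Adgre1, 95.6 of Folr2 and 227 of Gpnmb. Its infarct library held 121 CPM of Cd68, 111 of Adgre1 and 176 of Gpnmb. Each of these was the highest of its 6 libraries. Of the lists scored in these 3 libraries, the proliferation score was 5.0 to 5.25 against 1.82 to 2.85 in the other sham libraries, and the B cell score was 0.49 to 1.47 against -3.16 to -1.8.

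MI+Cell Sheet remote replicate 1 held 945 CPM of Gpnmb, the highest of its group. MI border replicate 1 was the highest of its group for Cd163 at 183 CPM and for Timd4 at 14.8 CPM. MI+Cell Sheet infarct replicate 6, which also held lung markers, was the lowest of its group for Csf1r at 161 CPM and for Folr2 at 47.2 CPM.

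The response to MI differed between the infarct and remote zones for Cd68, by a log2 difference of 1.624 (edgeR adjusted p = 0.0187), and for Gpnmb, by 2.429 (edgeR adjusted p = 0.0194).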

How the results depend on the processing

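Of 2809 fold changes of the 10 genes under alternatives, 2660 kept their direction and their side of the threshold, 67 gained a call, 81 lost a call and 1 reversed. The reversal was Cd68 in MI against sham in the remote zone with the cardiomyocyte covariate, at -0.655. Of 417 counts and balances, 391 stayed within 1.5 times or within the spread and 26 moved.

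With the cardiomyocyte covariate, the genes called in MI against sham were 2 at the infarct (8 as reported), 3 at the border (9) and 3 in remote tissue (5). In MI+Cell Sheet against MI they were 4 at the border (1) and 1 in remote tissue (0), and against sham 1 at the infarct (9) and 5 at the border (8). With the adipocyte covariate, the border counts were 0 against MI and 0 against sham. DESeq2 called 2 genes at the border in MI+Cell Sheet against MI. For zone differences it called 1 gene between border and remote zones for MI against sham, and for the sheet against MI 4 between infarct and remote and 1 between border and remote, where edgeR called 0. Without TMM, 4 genes differed between infarct and remote zones for MI against sham (2). A fit of all 9 groups called 3 genes in remote MI against sham.

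The replicate block called 9 genes in remote MI against sham (5) and 0 at the border in MI+Cell Sheet against MI (1). The replicate numbers mark different rats across treatments, and in each comparison 1 to 3 of 6 same-numbered pairs had deviations correlated over 0.1 (-0.81 to 0.67 in all). These correlations had no reference to be read against. Whether libraries of the same number shared a batch or a day was not tested.

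Leaving out 1 library gave, for MI against sham, 8 to 10 genes at the infarct, 7 to 10 at the border and 4 to 9 in remote tissue, and for the sheet against MI 0 to 0, 0 to 3 and 0 to 8. Against sham the sheet gave 9 to 10, 6 to 10 and 0 to 0. For zone differences the counts were 2 to 4 (infarct and remote) and 0 to 2 (border and remote) for MI, and 0 to 4 (infarct and remote) for the sheet. The highest remote counts came without sham replicate 5 (9) and without MI+Cell Sheet replicate 1 (8). Balances kept their sign in every comparison when 1 library was left out, except the sheet against sham in remote tissue (-0.38 to 0.15).

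Over all genes, the replicate block called 4193 genes at the border for MI against sham (6517 as reported), 1214 at the border (2922) and 2 in remote tissue (2623) for the sheet against MI, and 0 in remote tissue for the sheet against sham (1). A log2 threshold of 1 left 3617 of 7866, 2853 of 6517 and 924 of 3952 genes for MI against sham, 435 of 2922 and 397 of 2623 for the sheet against MI at the border and in remote tissue, and 4538 of 9078 and 2967 of 6955 for the sheet against sham at the infarct and border. The cardiomyocyte covariate called 720, 1016 and 2626 genes for MI against sham, 4702 at the border for the sheet against MI, and 964, 4398 and 56 for the sheet against sham. The adipocyte covariate called 1239 and 1708 for the sheet against MI at the border and in remote tissue and 2147 at the border against sham. DESeq2 called 56 at the infarct for the sheet against MI (0), 173 in remote tissue against sham (1), 68 and 1411 for the MI zone differences and 311, 1611 and 1067 for those of the sheet, each 0 in edgeR. The fit of all 9 groups called 6 at the infarct for the sheet against MI and 183 in remote tissue against sham, where leaving out both libraries that stood apart called 128. The cause of these changes was not tested. Timd4 had the fewest counts of the 10 genes, and its calls in MI against sham at the infarct and border were made, among the alternatives run, only without sham replicate 5.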

Other observations

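Of 12 genes of growth factor signalling and lineage in macrophages tested in remote tissue, Tfec (log2 -1.41) and Csf2rb (log2 -1.24) were called lower than in MI by edgeR and none higher, where 6.79% of all genes were called lower and 10.3% higher. Tfec encodes a transcription factor of the MITF family found in macrophages, and Csf2rb encodes the shared receptor chain for GM-CSF, interleukin 3 and interleukin 5. Plac8 (log2 -1.83) was among the monocyte genes called lower. At the border no gene of the growth factor list was called, and of 10 monocyte genes only Ace was called, higher with the sheet (log2 0.94). These genes were named after their values were seen, and no explanation was tested.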
